A study of Mus musculus with 4 samples.

Results

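The 33 genes described here encode enzymes, regulators and transporters of sterol and fatty acid synthesis. They were chosen by name, and each was found once among the 50600 genes counted in RNA-seq of regulatory T cells of the mouse, a CD4+ lineage that keeps other immune cells in check. Of the 33 genes, 18 encode enzymes of the path that leads to cholesterol, 6 encode enzymes of fatty acid synthesis, 5 encode regulators and 4 encode proteins that move or store sterols. The study has 1 group of 4 libraries, numbered as biological replicates 1 to 4, of primary regulatory T cells from strain C57BL/6NJ. The labels record neither sex nor age, give all 4 libraries the same donor identifier and point to a differentiation protocol for CD4+ cells. They call the assay total RNA-seq, while the library protocol they point to is named for polyA+ RNA. Names of counted files, as written in the tables' first lines, include "activated" and a 24 h mark, and no resting, untreated or other T cell population is part of the group. Nothing in the labels says that the libraries came from separate animals or cultures, so the p-values below measure only the spread between these 4 libraries. The shared donor identifier goes against the sex chromosome genes. Xist, expressed from an inactive X chromosome, stood at 100.4, 88.7, 0.716 and 0.603 TPM across the 4 replicates. Ddx3y, on the Y chromosome, stood at 0.159, 0.101, 46.1 and 40.6 TPM, so both genes set replicates 1 and 2 apart from the other pair. Every mean ± SD below spans both pairs of libraries, and since the labels give no sex the pairs were not tested against each other.

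Cells make cholesterol from acetyl-CoA through mevalonate, isoprenoids, squalene and lanosterol, and make fatty acids from the same acetyl-CoA through malonyl-CoA. Both paths are switched on by SREBP transcription factors. These are held in the endoplasmic reticulum by INSIG proteins when sterols are plentiful and are carried to the Golgi by SCAP, where proteases release them, when sterols are scarce. Surplus sterol is exported by ABC transporters under the control of the nuclear receptors called LXR, or stored as esters. In T cells this program is known to be raised after activation, when dividing cells need new membrane.

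Each library held 38590127 to 93035969 fragments assigned to genes. Levels are given as TPM, fragments per gene scaled for its length and for the library total, so that genes can be compared within a library. Genes of T cell and regulatory T cell identity were present in every library: Cd4 had 540 ± 31.7 TPM, Il2ra 702 ± 44.1 and Foxp3, which defines the lineage, 109 ± 14.5 (SD, n = 4). Ikzf2, which marks many regulatory T cells, was low, with 4.32 ± 0.788 TPM. Markers of tissues known for high lipid synthesis were not detected, with 0 fragments for all 3 hepatocyte genes and all 3 adipocyte genes in all 4 libraries, and a count of 0 allows at most 3 fragments. The summed level of the 5 macrophage genes was 5.43 to 8.93 TPM. Cd68 was the highest of them, with 5.44 ± 1.23 TPM, a mean above that of Ikzf2. Adgre1 came next, with 53 to 98 fragments per library. Cd14 had 6 fragments, all in replicate 2, Csf1r had 0.0580 ± 0.0194 TPM and Lyz2 had 0 fragments. The summed level of 3 B cell genes was 0.851 to 2.41 TPM.

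Promoter windows of 6 genes are shown first, to show at least 1 gene of each role: the 2 highest sterol enzymes (Hmgcs1 and Cyp51), the brake Insig1, the regulator Srebf2, the fatty acid enzyme Fasn and the exporter Abca1. Each is the 250 bases before the gene's start in RefSeq, 5′ to 3′ on the gene's strand, on build GRCm38.p6, the assembly of the deposited tables. RefSeq starts can differ from those of the counted genes: the Cyp51, Insig1 and Srebf2 windows run into the counted gene, and the Hmgcs1 window stops short of it. Capitals mark matches, on either strand, to any of 4 motifs: CACNCCAC, a core of sites that SREBP proteins bind; CCAAT, the box of the factor NF-Y; GGGCGG, the box of the factor Sp1; and CACGTG, an E-box. Neighbouring or overlapping matches run together.
Hmgcs1: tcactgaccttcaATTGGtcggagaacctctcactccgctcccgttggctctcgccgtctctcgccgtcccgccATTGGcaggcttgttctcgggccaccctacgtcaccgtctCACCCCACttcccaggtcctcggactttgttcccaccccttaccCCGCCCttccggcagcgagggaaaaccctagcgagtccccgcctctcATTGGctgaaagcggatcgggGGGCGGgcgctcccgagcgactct
Cyp51: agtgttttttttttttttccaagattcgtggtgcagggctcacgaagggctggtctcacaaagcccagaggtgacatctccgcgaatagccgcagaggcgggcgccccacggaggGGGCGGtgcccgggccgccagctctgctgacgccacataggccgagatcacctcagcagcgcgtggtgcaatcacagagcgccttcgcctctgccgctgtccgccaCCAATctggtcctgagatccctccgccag
Insig1: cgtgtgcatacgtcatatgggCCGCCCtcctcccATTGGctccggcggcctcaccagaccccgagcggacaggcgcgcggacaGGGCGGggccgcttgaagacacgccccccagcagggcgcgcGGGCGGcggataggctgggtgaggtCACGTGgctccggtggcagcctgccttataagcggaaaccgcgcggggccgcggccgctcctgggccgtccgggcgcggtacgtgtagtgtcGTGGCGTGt
Srebf2: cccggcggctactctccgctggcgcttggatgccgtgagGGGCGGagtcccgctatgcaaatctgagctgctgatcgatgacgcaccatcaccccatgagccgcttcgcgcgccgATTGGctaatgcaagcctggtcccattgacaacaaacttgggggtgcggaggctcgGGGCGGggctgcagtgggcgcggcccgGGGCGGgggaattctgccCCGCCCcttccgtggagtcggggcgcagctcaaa
Fasn: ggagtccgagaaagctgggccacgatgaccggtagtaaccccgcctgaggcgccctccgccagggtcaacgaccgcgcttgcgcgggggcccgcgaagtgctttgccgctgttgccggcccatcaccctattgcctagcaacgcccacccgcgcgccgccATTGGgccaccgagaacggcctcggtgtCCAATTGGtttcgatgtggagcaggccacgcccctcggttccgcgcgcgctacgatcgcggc
Abca1: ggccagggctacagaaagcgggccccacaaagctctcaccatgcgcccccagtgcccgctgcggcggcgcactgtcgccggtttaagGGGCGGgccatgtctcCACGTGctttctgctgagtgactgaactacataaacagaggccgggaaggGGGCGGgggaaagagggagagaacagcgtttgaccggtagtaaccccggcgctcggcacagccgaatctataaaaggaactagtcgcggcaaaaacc
The Hmgcs1 window lies at chr13:119690101-119690350 on the plus strand, Cyp51 at chr5:4104698-4104947 on the minus strand, Insig1 at chr5:28071162-28071411 on the plus strand, Srebf2 at chr15:82147019-82147268 on the plus strand, Fasn at chr11:120824548-120824797 on the minus strand and Abca1 at chr4:53159896-53160145 on the minus strand. Hmgcs1 held 1 match to CACNCCAC, 3 to CCAAT and 2 to GGGCGG, and Insig1 held 1, 1 and 3 and also 1 E-box. Abca1 had no CCAAT in this window, and Fasn had 3, with its last pair side by side and sharing bases. Cyp51 held 1 match each to CCAAT and GGGCGG, and Srebf2 held 1 and 4.

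The RefSeq table held promoter windows for 26 of the 33 genes, 34 windows in all, each 300 bases long with 50 of them after the start. CCAAT was present in 22 of the 34 windows (64.7%), against 37.4% of the 32851 windows of all genes. GGGCGG was present in 26 of 34 (76.5%), against 35.7% of all windows. CACGTG was present in 7 of 34 (20.6%) against 7.15%, and CACNCCAC in 3 of 34 (8.82%) against 6.24%, in Acat2, Hmgcs1 and Insig1. By gene, 21 of 26 had CCAAT, among them Mvk, Pmvk, Mvd and Idi1, while Abca1, Acaca, Acat2, Elovl6 and Scap had none. These counts describe letters in a window and were not tested, and the windows of all genes were not limited to expressed genes. Abcg1, Sqle, Fdft1, Stard4, Scd1, Scd2 and Fdps were not matched.

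All 33 genes were expressed. Their mean level was at least 1 TPM in 33 of 33, against 47.7% of all 21764 protein-coding genes, at least 10 TPM in 31, against 36.2%, and at least 100 TPM in 8, against 9.43%. The 8 were Acly, Srebf2, Scd2, Fasn, Hmgcs1, Cyp51, Srebf1 and Insig1. The 2 genes under 10 TPM were Abca1, a sterol exporter, and Tm7sf2, a sterol reductase. Among the 10664 protein-coding genes with at least 1 TPM in any library, the median of mean levels was 29.5 TPM. Of the 33 genes, 18 lay above that median. Together the 33 genes held 2622, 2760.3, 2931 and 2868 TPM across replicates 1 to 4, or 0.280% of the transcript total on average. In these bulk libraries more cells that express a gene and more RNA per cell cannot be told apart.

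**Figure D1:**
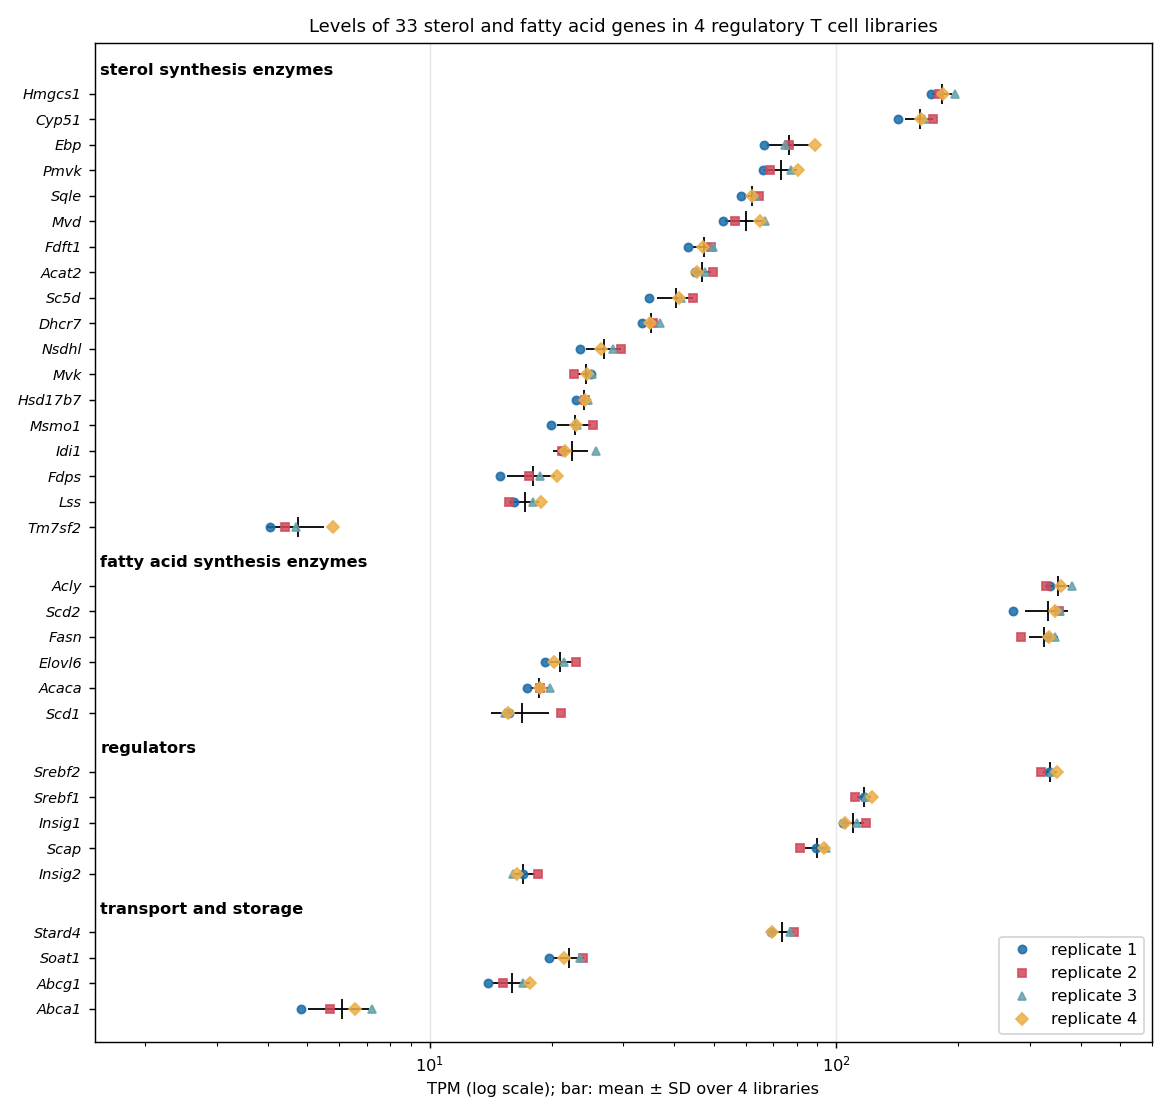
TPM (log scale) of the 33 genes in each of the 4 libraries, grouped by role and ordered by mean level, with a vertical tick and bar for the mean ± SD (n = 4). Acly, Srebf2, Scd2 and Fasn lie at 272 TPM or more in every library, and Tm7sf2 and Abca1 at 7.22 or less.

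The sterol enzymes had a median level of 37.8 ± 2.65 TPM (SD over 4 libraries) and ran from 4.74 for Tm7sf2 to 182 TPM for Hmgcs1, without a common level along the path. Hmgcs1 and Cyp51 had the 2 highest means. Hmgcs1, the cytosolic HMG-CoA synthase (ENSMUSG00000093930.1, chromosome 13, 119690462 to 119708086, plus strand), had 171, 179, 197 and 183 TPM in replicates 1 to 4. Acat2, the thiolase that supplies its acetoacetyl-CoA, had 46.9 ± 2.20 TPM. About 65.6% of the Acat2 transcript has a near-identical copy elsewhere, in Acat3 or Tcp1, and reads that map to several places were not counted, so its level is a lower estimate. Acat3 itself had 0 to 3 fragments per library.

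The mevalonate steps that follow were lower than Hmgcs1. Mvk, mevalonate kinase, had 24.3 ± 1.16 TPM. Pmvk, which adds the second phosphate, had 66.1, 68.9, 77.3 and 80.6 TPM in replicates 1 to 4, and Mvd, which removes the carboxyl group, had 52.6, 56.4, 66.8 and 65.0 TPM. Both genes were lower in replicates 1 and 2 than in replicates 3 and 4, and the Mvk values did not overlap with those of either. Idi1, the isopentenyl diphosphate isomerase, had 21.2, 21.1, 25.6 and 21.5 TPM, with replicate 3 above the others. About 22.6% of its principal transcript has a near-identical copy in the pseudogenes Gm13502 or Gm35570, and reads that map to several places were not counted.

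The isoprenoid and squalene steps were low to intermediate. Fdps, farnesyl diphosphate synthase, had 14.9, 17.5, 18.7 and 20.6 TPM in replicates 1 to 4. Its counts are restricted: 76.8% of its principal transcript has a near-identical copy in the pseudogene Gm3571, 26.7% of its exon bases are shared with Gm43738 on the same strand, and its exon union of 4208 bp is 3.04 times its principal transcript. With the principal transcript's length its level was 37.96 ± 4.70 TPM, and Gm3571 had 0.924 ± 0.266 TPM. Fdft1, squalene synthase, had 47.4 ± 2.99 TPM, with 33.7% of its transcript copied in a pseudogene, and 25.5 ± 1.33 TPM by principal length. That length, 3698 bp, is longer than the 2860 bp of exons counted for Fdft1, so the second value divides by bases that were not counted. Sqle, the squalene epoxidase and a step that limits the later path, had 58.4, 64.6, 63.2 and 62.2 TPM. Lss, which closes the ring to lanosterol, had 17.2 ± 1.46 TPM, and 27.6 ± 2.20 by principal length.

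Among the genes that turn lanosterol into cholesterol, Cyp51, the lanosterol demethylase (ENSMUSG00000001467.5, chromosome 5, 4081145 to 4104746, minus strand), reached 142, 173, 165 and 161 TPM in replicates 1 to 4. Replicate 1 was its lowest library, and among the 18 enzymes its range overlapped only that of Hmgcs1. Of the enzymes that take off the methyl groups next, Msmo1 had 22.8 ± 2.20 TPM, Nsdhl 26.9 ± 2.65 and Hsd17b7 23.9 ± 0.696. Ebp, the sterol isomerase, had 76.8 ± 9.17 TPM, Sc5d, which introduces a double bond, 40.4 ± 4.14, and Dhcr7, a final reductase, 35.1 ± 1.44. Tm7sf2 had the lowest mean by exon union, with 4.06, 4.41, 4.70 and 5.79 TPM from 171 to 556 fragments, and its range overlapped that of Abca1. By principal transcript length it had 7.81 ± 1.17 TPM, above Abca1 and level with Abcg1, whose principal transcript is longer than its counted exons. It shares 15.3% of its exon bases with Vps51 on the same strand, where reads were not counted. Lbr, a nuclear envelope protein that carries the same sterol reductase activity, had 164 ± 3.26 TPM, within the range of Cyp51.

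Read in order of level, the 18 sterol enzymes gave 17 pairs of neighbours, of which 10 overlapped between libraries and 7 did not. Hmgcs1 and Cyp51 could not be separated, nor could Ebp and Pmvk, Sqle and Mvd, or Fdft1 and Acat2. The 5 genes Nsdhl, Mvk, Hsd17b7, Msmo1 and Idi1 formed a run of overlapping levels between 19.9 and 29.5 TPM. Gene length entered these orders. With the length of the principal transcript in place of the exon union, Hmgcs1 had 119 ± 5.95 TPM and Cyp51 125 ± 8.77, and Msmo1 had 47.7 ± 4.11 TPM, 2.09 times its level by exon union. Changing the lengths of all genes also shifts the scale, as Scd1, with nearly the same length, fell to 0.70 times its level. The principal transcript of Hmgcs1, 3464 bp, is longer than its 3233 bp of counted exons.

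The fatty acid enzymes fell into a high and a low set. Acly, which makes cytosolic acetyl-CoA from citrate, had 336, 329, 379.8 and 357 TPM in replicates 1 to 4. Fasn, fatty acid synthase (ENSMUSG00000025153.9, chromosome 11, 120805846 to 120824547, minus strand), had 332, 285, 345 and 333 TPM. Scd2, a desaturase that places the first double bond (ENSMUSG00000025203.5, chromosome 19, 44293676 to 44306864, plus strand), had 272, 353, 355 and 346 TPM. The 3 ranges overlapped, while none reached down to the next gene. Elovl6, which elongates palmitate, had 20.9 ± 1.61 TPM, Acaca, acetyl-CoA carboxylase and the committed step, 18.6 ± 0.973, and Scd1 15.7, 21.0, 15.4 and 15.6.

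The gap between the 2 sets was wider than the spread between libraries, with 272 TPM as the lowest value of the high set and 22.9 TPM as the highest of the low set. For Acaca, 64.3% of the principal transcript has a near-identical copy in the pseudogene Gm5182 and the exon union is 17074 bp against 9513 bp for the principal transcript. Its level was 23.3 ± 0.978 TPM by the principal length, which leaves it in the low set. The median of the 6 fatty acid enzymes was 165 ± 18.0 TPM, a value between the sets that no single gene showed.

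The regulators were led by Srebf2, the SREBP factor of the sterol path (ENSMUSG00000022463.7, chromosome 15, 82147266 to 82205376, plus strand), with 334, 319.7, 340.3 and 350.2 TPM in replicates 1 to 4. Srebf1, whose products drive fatty acid genes (ENSMUSG00000020538.15, chromosome 11, 60199089 to 60222581, minus strand), had 117, 111, 118 and 123 TPM. Counts per gene do not separate the SREBP1a and SREBP1c forms. Scap, the escort of both factors, had 89.1, 81.5, 94.3 and 93.4 TPM. All 3 genes were lowest in replicate 2, and Srebf2 lay above Srebf1 in every library. Insig1, the INSIG gene that is itself an SREBP target (ENSMUSG00000045294.11, chromosome 5, 28071363 to 28078662, plus strand), had 104, 119, 113 and 105 TPM, and Insig2 had 17.0, 18.5, 16.0 and 16.4. Insig1 and Insig2 were highest in replicate 2, the library in which Srebf1, Srebf2 and Scap were lowest.

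Genes of transport and storage were mostly low. Stard4, a carrier of cholesterol between membranes, had 69.0, 78.8, 77.2 and 69.6 TPM. Soat1, which esterifies cholesterol for storage, had 22.1 ± 1.93 TPM. The exporter genes were the lowest: Abcg1 had 13.9, 15.1, 17.0 and 17.6 TPM and Abca1 (ENSMUSG00000015243.4, chromosome 4, 53030787 to 53159895, minus strand) 4.82, 5.70, 7.22 and 6.56. By principal length Abcg1 had 7.73 ± 0.754 TPM, under 10, and Abca1 4.27 ± 0.692. For Abcg1 that length, 5832 bp, is longer than the 4066 bp of counted exons, so its counts were divided by bases that were not counted. The scale by principal length also put Scd1 and Scd2, with nearly unchanged lengths, at 0.70 times their level. By exon union the 4 genes did not overlap at any neighbouring pair.

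Ratios within a library do not depend on scaling between libraries, and 4 pairs were compared in this way. Srebf2 over Srebf1 was nearly constant, 2.85, 2.88, 2.87 and 2.86 in replicates 1 to 4, a log2 ratio of 1.52 ± 0.01 (SD, n = 4). Insig1 over Insig2 was 6.14, 6.42, 7.03 and 6.41, a log2 ratio of 2.70 ± 0.08. Abcg1 over Abca1 was 2.89, 2.65, 2.36 and 2.69, a log2 ratio of 1.401 ± 0.12, but this rests on the length used: it was 0.87 with principal transcript lengths, and without division by length it was 0.18, 0.06, -0.11 and 0.08 in replicates 1 to 4. Scd2 over Scd1 was 17.3, 16.8, 23.1 and 22.2, a log2 ratio of 4.30 ± 0.24, so it varied the most of the 4. Its values in replicates 1 and 2 lay below those in replicates 3 and 4, the same pairs that Xist and Ddx3y separate. Neither gene alone made this split. Scd2 was low in replicate 1, with 272 TPM against 346 to 355 in the others. Scd1 was high in replicate 2, with 21.0 TPM against 15.4 to 15.7 in the others. Pmvk and Mvd in TPM were lower in replicates 1 and 2, as were other members, among them Hmgcs1, Acly, Fasn and Srebf2. With counts scaled by TMM factors to CPM, as described below, Pmvk and Mvd kept this order. So did other members, among them Fdps, Lss, Tm7sf2, Abca1 and Abcg1. Hmgcs1, Acly, Fasn and Srebf2 did not. Fasn had 1159, 924, 1091 and 1086 CPM in replicates 1 to 4, and Srebf2 had 531, 472, 490 and 520. Plain TPM was lowest in replicate 1 for 52% of all tested genes, and no share of all genes was computed for this pattern. The part of the Xist and Ddx3y split in these values was not tested. Neither desaturase had a stretch of at least 150 bp at 97% identity in another gene, so their reads were not shared at that level.

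**Figure D2:**
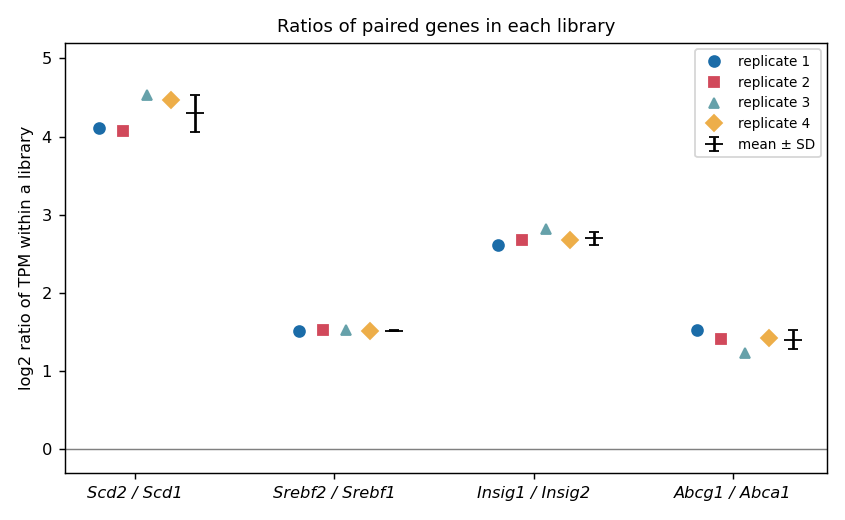
Log2 ratio of TPM for 4 gene pairs in each library, with the mean ± SD beside the points (n = 4). Srebf2 / Srebf1 spans 1.51 to 1.53, and Scd2 / Scd1 spans 4.07 to 4.53.

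For several steps the genome holds more than 1 gene, and 1 of them held most of the transcripts. The list of other pathway genes held 53 genes, of which 37 had a mean of at least 1 TPM and 4 had 0 fragments in every library. Idi1 was 22.6 to 62.4 times Idi2 (0.698 ± 0.252 TPM), and Acaca was 53.0 to 160.1 times Acacb, the carboxylase tied to fatty acid oxidation (0.222 ± 0.113 TPM). Soat1 was 19.5 to 33.1 times Soat2 (0.907 ± 0.227 TPM). Scd3 had 1 fragment, in replicate 4, and Scd4 had 1 to 5 per library.

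The same held for the LXR genes among the sensors, but not for Erlin1 (18.5 ± 1.97 TPM) and Erlin2 (21.7 ± 2.37), which were close. Nr1h2, which encodes LXR beta, had 91.2 ± 4.44 TPM, and Nr1h3, which encodes LXR alpha, had 0.559, 0.210, 1.33 and 1.17. Mylip, a ubiquitin ligase gene under LXR control, had 6.00 ± 1.13 TPM, close to Abca1. Mlxip had 32.0 ± 2.22 TPM and Mlxipl, the carbohydrate-responsive factor of liver, 0.0978 ± 0.0750.

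**Figure D3:**
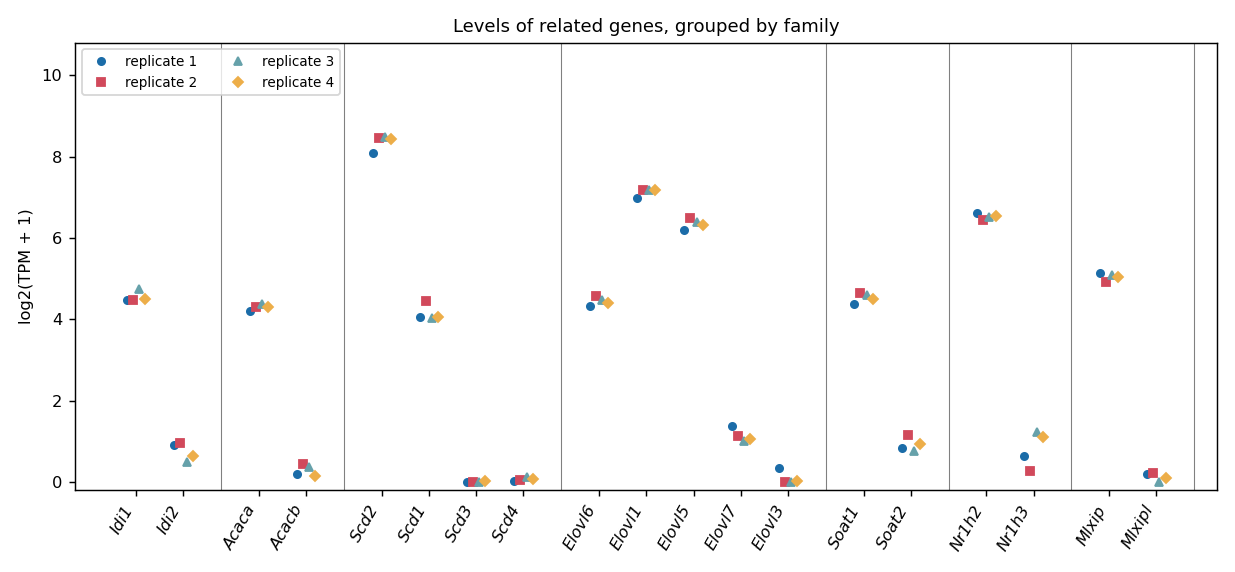
log2(TPM + 1) in each library for 7 groups of related genes, separated by vertical lines. In each group with 2 genes the first lies above the second in all 4 libraries, and Scd3 lies at or near 0.

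Of the 24 other fatty acid genes, 16 had a mean of at least 1 TPM and 7 at least 100. The highest were Acsl5, which activates fatty acids to their CoA esters, at 299 ± 22.5 TPM, Slc25a1, the carrier that exports citrate from mitochondria for Acly, at 223 ± 8.55, and Hacd3, an enzyme of chain elongation, at 161 ± 13.5. Elovl1 had 139 ± 9.40 TPM and Elovl5 80.7 ± 7.004, both above Elovl6. Acss2, which makes acetyl-CoA from acetate, had 4.36 ± 0.809 TPM, Me1, a source of NADPH, 0.0986 ± 0.0731, and Thrsp, a lipogenic gene of liver and fat, 0 fragments.

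Of the 11 other genes of isoprenoid and early steps, 9 reached 1 TPM. After Lbr the highest were Nus1, which with Dhdds builds dolichol, at 83.4 ± 7.81 TPM, and Aacs, which activates acetoacetate, at 77.7 ± 3.69. Of the 10 sensing genes 9 reached 1 TPM, with Nr1h2 among the 3 highest. Of 8 genes of sterol handling only 3 reached 1 TPM, Npc2 at 105 ± 7.77, Osbp at 61.8 ± 3.16 and Stard3 at 38.7 ± 1.18. The oxysterol enzymes were at or near 0 fragments: Cyp7b1 and Cyp27a1 had 0 fragments and Ch25h had 0 to 4 per library.

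The last comparison asked whether the 33 genes spread more between the libraries than genes of like abundance. It used the upper F tail on edgeR's quasi-likelihood fit. A gene that differs between libraries as much as a typical gene is not called, so no call does not show equal levels. At a Benjamini-Hochberg adjusted p of 0.05, 0 of 33 passed, against 0.468% of the 12396 genes tested, and DESeq2 marked 0 as dispersion outliers. At an unadjusted p under 0.05 there were 2 of 33, Fasn and Scd1, against 5.33% of genes. Fasn had 1159, 924, 1091 and 1086 CPM (counts scaled to a common library total with TMM factors, so that libraries can be compared) in replicates 1 to 4, with replicate 2 the lowest. Scd1 had 24.2, 30.0, 21.5 and 22.5 CPM, with replicate 2 the highest. The edgeR adjusted p was 0.830 for Fasn and 0.892 for Scd1. Of the other pathway genes 42 were tested, 0 passed, and 0 had an unadjusted p under 0.05. In 3 of the 33 genes, Idi1, Scd1 and Scd2, 1 library stood apart in TPM by Dixon's criterion, against 5.28% of expressed protein-coding genes, and on the TMM scale this held for 2, Scd2 and Tm7sf2, against 5.56% of tested genes.

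On the TMM scale the coefficient of variation over the 4 libraries had a median of 6.90% for the 33 genes and 7.94% for all tested genes. It ran from 1.20% for Dhcr7 to 15.6% for Scd1. For 23 of the 33 genes it was under the value for all genes. That value was not matched for level, so this does not show that the 33 were steadier than genes of like level. The highest library was 1.03 times the lowest for Dhcr7 and 1.36 times for Abca1, with only Scd1 above that. The steadiest were Dhcr7, Hsd17b7, Acaca, Sqle, Fdft1 and Hmgcs1, all under 3%, and the widest were Scd1, Tm7sf2 (14.4%) and Abca1 (13.7%).

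**Figure D4:**
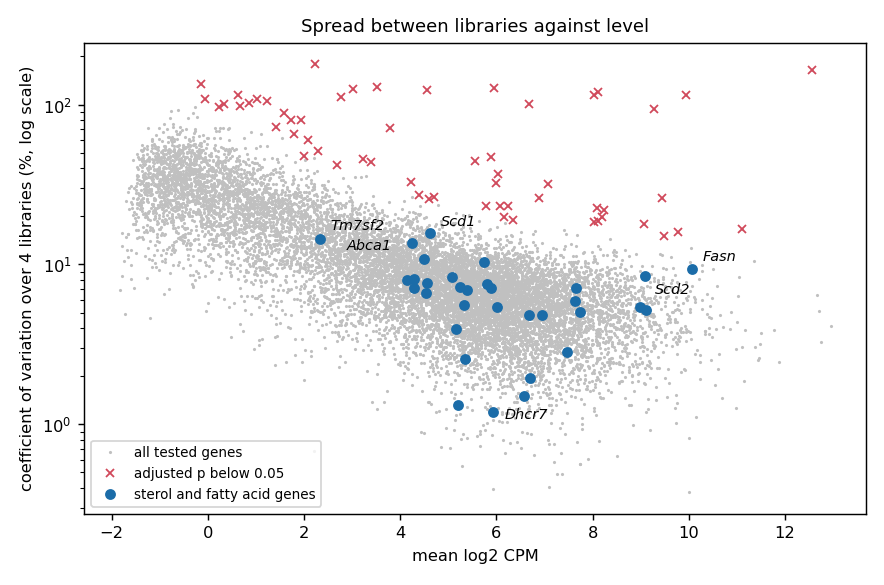
Coefficient of variation over 4 libraries (%, log scale) against mean log2 CPM for all 12396 tested genes (grey), the 58 that passed the test of spread (red crosses) and the 33 sterol and fatty acid genes (blue). The blue points lie within the grey cloud between 1.20 and 15.6%, and none is among the crosses.

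The genes did not deviate as 1 block. On the TMM scale 14 of 33 were highest in replicate 2, against 28.5% of all tested genes, and 12 of 33 were lowest in that same library, against 30.1%. Replicate 1 was highest for 6 (28.6% of all genes) and lowest for 12 (28.4%), replicate 3 highest for 6 (23.1%) and lowest for 4 (21.7%), and replicate 4 highest for 7 (19.8%) and lowest for 5 (19.9%). By role, replicate 2 was highest for 7 of the 18 sterol enzymes, among them Cyp51, Msmo1 and Sc5d, and lowest for 6. Those 6 were Hmgcs1, Mvk, Pmvk, Mvd, Idi1 and Lss. Of the 5 regulators, it was highest for Insig1 and Insig2 and lowest for Srebf1, Srebf2 and Scap. Of the 6 fatty acid enzymes, it was highest for Elovl6, Scd1 and Scd2 and lowest for Fasn, Acly and Acaca. In plain TPM replicate 1 was the lowest for 23 of 33 genes, against 52% of all tested genes. It was the highest for 0, against 12.2%, and replicate 3 was the highest for 13, against 38%. With TPM over protein-coding genes alone, replicate 1 was the lowest for 10, against 25.2% of tested protein-coding genes, and the highest for 6, against 30.9%, and replicate 3 was the highest for 8, against 28.2%. In replicate 1 protein-coding genes held 88.2% of TPM, against 95.6 to 96.6% in the others, and Gm42418, a feature related to ribosomal RNA, had 35490.5 TPM against 1324 to 3197.

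**Figure D5:**
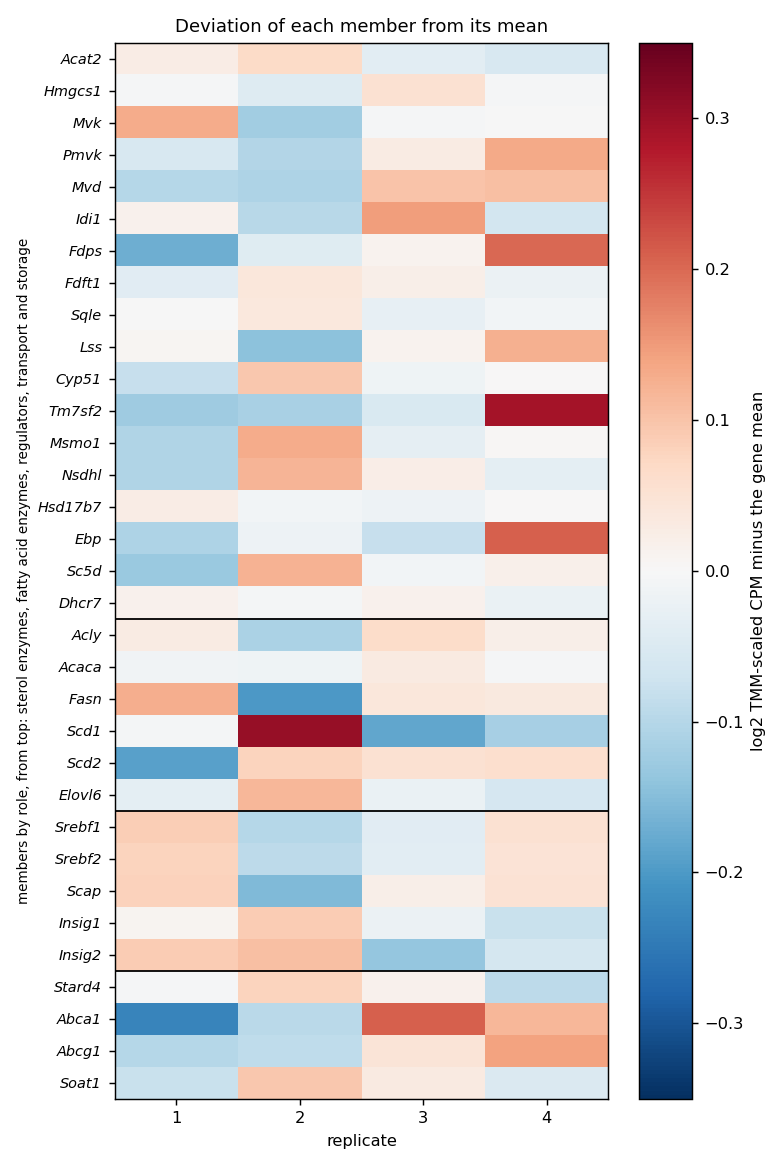
Log2 TMM-scaled CPM minus the gene's own mean for the 33 genes (rows, by role) in replicates 1 to 4 (columns), red above and blue below the mean. Replicate 2 is blue for Srebf1, Srebf2, Scap and Fasn and red for Scd1, which had the widest spread, with 30.0 CPM in replicate 2 and 21.5 in replicate 3.

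The 2 X-linked genes, Nsdhl and Ebp, were looked at beside Xist and Ddx3y. Nsdhl (chromosome X, 72918557 to 72958514, plus strand) had 21.3, 24.9, 23.3 and 22.4 CPM on the TMM scale in replicates 1 to 4 (edgeR adjusted p = 0.997). Ebp (chromosome X, 8185329 to 8193512, minus strand) had 49.1, 52.3, 50.01 and 61.1 CPM (edgeR adjusted p = 0.974). For both genes the values of replicates 1 and 2 overlapped with those of replicates 3 and 4.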

How the data were processed

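RNA from 4 libraries of regulatory T cells was counted by the authors per gene; the file headers name featureCounts 1.4.6-p4, run on read pairs over exons with strand setting 2, GENCODE release M13, on mm10. The deposited values are raw counts of fragments, and multi-mapping or doubly assigned reads were not counted, per the options in the file headers. File names carry a STAR tag; no aligner version is given in the sources used here. TPM and FPKM were computed here from counts and the deposited exon union lengths. Names came from GENCODE release M21 by gene ID without version (50376 of 50600 matched). Spread between libraries was tested in edgeR (version 4.0.16, under R 4.3.3) by an intercept-only quasi-likelihood fit (TMM scaling, genes kept by filterByExpr, upper tail of F, Benjamini-Hochberg over 12396 genes), checked on simulated data, with DESeq2 1.42.0 as an alternative. The F value was each gene's dispersion over the prior value for genes of like abundance. Near-identical copies were sought with blastn 2.17.0 (97% identity over 150 bp) in GENCODE M21 transcripts. Values are means ± SD over the 4 libraries, which the labels put in 1 group, so no groups were compared. Alternatives were other scalings, lengths, filters and leaving out each library. Counting limits cover counting error only. The 33 genes, the other lists and the naming rule (all 33 genes; of each other list the 3 highest and 2 lowest, with further genes named after their values were seen and some results not reported here) were chosen with earlier results of these data known.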

Additional observations from a re-analysis of the deposited data

Results flagged for a closer look

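In 3 of the 33 genes 1 library stood apart from the other 3 in TPM, by the gap to its nearest neighbour over the whole range set against Dixon's 95% critical value. About 1 in 20 groups passes by chance, and 5.28% of the 10664 expressed protein-coding genes passed here. Scd1 was high in replicate 2, with 21.0 TPM against 15.4 to 15.7 in the others (ratio 0.938). Idi1 was high in replicate 3, with 25.6 TPM against 21.1 to 21.5 (ratio 0.921). Scd2 was low in replicate 1, with 272 TPM against 346 to 355 (ratio 0.891). On the TMM scale Scd2 passed again (ratio 0.896), with 472 CPM against 559 to 569, while Scd1 (0.678) and Idi1 (0.565) did not, and Tm7sf2 passed there with 6.00 CPM in replicate 4 against 4.51 to 4.73 (ratio 0.850). None of these genes passed the edgeR test of spread.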

How the results depend on the processing

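The count of genes at 10 TPM or more was 31 with TPM over protein-coding genes alone and 30 with principal transcript lengths, and 18 at an FPKM of 10, a smaller unit. The median of the sterol enzymes was 11.3 in FPKM. The median of the fatty acid enzymes was 49.3 in FPKM and 123 TPM with principal transcript lengths, an alternative chosen after seeing the data. With that alternative Scd1 and Scd2, whose own lengths were nearly unchanged, were also lower, so this shift is not due to their own lengths. The number of the 33 genes called as varying between libraries was 0 with DESeq2 size factors, no abundance filter, a non-robust prior, DESeq2 dispersion outliers and each library left out, which does not show that none varied. Over all genes that number was 110 with no abundance filter, 36 with a non-robust prior and 94 with DESeq2, and 37 to 69 with 1 library left out, the lowest without replicate 1; the cause was not tested. The mean log2 ratios stayed above 0, though Abcg1 over Abca1 without division by length was below 0 in replicate 3. Without division by length Srebf2 over Srebf1 was 1.34, Insig1 over Insig2 2.53 and Abcg1 over Abca1 0.0511; with principal transcript lengths they were 1.10, 2.53 and 0.87. In plain TPM replicate 1 was highest for 0 of the 33 genes (12.2% of all tested genes) and replicate 3 for 13 (38%), and with TPM over protein-coding genes alone for 6 and 8. With 1 library left out the ratios were 4.22 to 4.37 for Scd2 over Scd1, 1.52 to 1.52 for Srebf2 over Srebf1, 2.66 to 2.73 for Insig1 over Insig2 and 1.36 to 1.46 for Abcg1 over Abca1. No paired analysis was possible because there is only 1 group. Depth limits Tm7sf2 the most, with 171 fragments in replicate 1.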
